A study of Mus musculus with 7 samples.

Results

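The 285 promoter peaks described here were those whose H3K27ac was lowest after 48 h of NeuroD1 induction. They were chosen from 66841 merged peaks, of which 16422 came within 2 kb of the transcription start (TSS) of some protein-coding gene and 13362 of these had a mean raw count of at least 20. Each library was scaled by its total, multiplied by the mean total (scaled counts below), and a peak was taken when the lowest of its 4 values at 0 h and 12 h was at least 1.2 times the higher of its 2 values at 48 h. The opposite rule, with 48 h highest, gave 785 promoter peaks, which serve here as a comparison. The cells were A2Lox mouse embryonic stem (ES) cells, which carry a NeuroD1 transgene under doxycycline control and had been grown in serum and LIF and taken off feeders onto gelatin before the experiment. All 6 libraries came from this single line. The 0 h cells were uninduced (minusDox), and the 12 h and 48 h cells received 500 ng/ml doxycycline (plusDox), so that time in culture and induction cannot be told apart. The protocol in the labels gives 48 h of doxycycline for all samples, and the time points were taken from the sample titles. There were 2 replicates, R1 and R2, at each time, and the sources used here do not say whether these came from separate cultures, so that p-values measure only the spread between these libraries, which may be technical.

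H3K27ac is an acetylation of histone H3 that marks active promoters and enhancers and is placed by p300 and CBP. Promoters of housekeeping genes mostly lie in CpG islands and carry the mark in nearly all cells. Promoters poor in CpG are more often restricted to particular cell types and depend on the transcription factors present there. NeuroD1 is a basic helix-loop-helix factor that binds E-boxes and drives neuronal differentiation, during which the circuit that keeps ES cells pluripotent is shut down.

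The stretches just upstream of a few members are shown because most members were poor in CpG, while a minority were not. Each line gives the 200 bases before the TSS in mm10 (GRCm38), read 5′ to 3′ in the direction of transcription, with CpG dinucleotides in capitals. The stretches lie at chr1:180934822-180935021 (Lefty1, plus strand), chr10:61417772-61417971 (Nodal, plus), chr14:46390670-46390869 (Bmp4, minus), chr1:119422249-119422448 (Inhbb, minus) and chr7:144861186-144861385 (Fgf4, plus). None of them overlapped an annotated exon.
Lefty1: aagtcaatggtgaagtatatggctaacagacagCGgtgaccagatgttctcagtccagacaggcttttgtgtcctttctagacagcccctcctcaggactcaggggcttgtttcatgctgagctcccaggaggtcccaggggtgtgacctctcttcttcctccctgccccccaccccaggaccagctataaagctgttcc
Nodal: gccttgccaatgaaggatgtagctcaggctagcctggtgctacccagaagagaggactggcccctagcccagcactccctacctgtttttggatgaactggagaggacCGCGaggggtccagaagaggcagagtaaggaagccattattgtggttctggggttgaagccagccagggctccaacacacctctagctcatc
Bmp4: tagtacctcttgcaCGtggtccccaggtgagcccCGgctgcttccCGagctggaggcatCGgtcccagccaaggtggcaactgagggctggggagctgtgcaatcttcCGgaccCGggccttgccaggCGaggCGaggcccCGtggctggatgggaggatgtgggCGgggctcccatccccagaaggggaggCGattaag
Inhbb: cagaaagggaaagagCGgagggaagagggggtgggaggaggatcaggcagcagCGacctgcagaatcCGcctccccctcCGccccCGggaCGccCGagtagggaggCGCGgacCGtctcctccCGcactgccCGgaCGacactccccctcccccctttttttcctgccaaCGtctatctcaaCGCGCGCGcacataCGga
Fgf4: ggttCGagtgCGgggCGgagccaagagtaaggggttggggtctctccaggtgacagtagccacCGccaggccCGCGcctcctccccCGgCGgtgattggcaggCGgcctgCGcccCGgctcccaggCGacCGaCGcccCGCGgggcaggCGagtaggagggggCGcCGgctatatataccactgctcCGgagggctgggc
The upstream stretch held 1 CpG in Lefty1 and 2 in Nodal, and 11 in Bmp4, 19 in Inhbb and 20 in Fgf4. Among the 151 members that covered a TSS the median was 7 CpGs in these 200 bases (quartiles 4 and 14), against 15 (9 and 21) in the 10604 promoter peaks that did so and 11 in the 565 promoter peaks highest at 48 h.

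The second set of sequences shows the letters TCAAGGTCA, the extended nuclear receptor site that ESRRB, an orphan nuclear receptor of the ES cell circuit, is known to bind. Each line gives the site in capitals with 20 bases on either side, from chr14:34378705-34378753 (Mmrn2, plus strand, inside the gene), chrX:101381990-101382038 (Gjb1, minus, inside the gene), chr7:29126371-29126419 (Ryr1, minus, outside genes) and chr13:55205592-55205640 (Nsd1, minus, outside genes).
Mmrn2: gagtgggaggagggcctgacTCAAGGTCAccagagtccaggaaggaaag
Gjb1: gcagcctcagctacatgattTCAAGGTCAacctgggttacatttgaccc
Ryr1: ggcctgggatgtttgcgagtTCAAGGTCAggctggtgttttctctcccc
Nsd1: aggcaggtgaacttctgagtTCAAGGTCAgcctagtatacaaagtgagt
These letters were in 13 of the 285 members, as described with the other motifs, and 10 of the 14 sites lay in sequence that the reference marks as repeats, those of Gjb1, Ryr1 and Nsd1 among them.

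Reads in merged peaks totalled 6283103 to 8112895 per library, which is the depth behind every count given here. All 8 of the ES cell markers examined (Pou5f1, Sox2, Nanog, Zfp42, Esrrb, Dppa4, Dppa5a, Tdgf1) had a promoter peak. Their summed scaled counts were 21400 to 24000 at 0 h and 12 h and 14400 (R1) and 18500 (R2) at 48 h, and 1 of them, Dppa5a, was itself a member. Of 8 markers of the feeder fibroblasts 2 had a promoter peak, with sums of 13.9 to 40.4 in the 6 libraries. Of 8 neuronal markers 6 had one, and their sums were 553 to 666 at 0 h and 12 h and 1110 and 908 at 48 h. The sums hide differences between markers. In edgeR at 48 h vs 0 h, 3 ES cell markers were lost and 0 gained, and Pou5f1 and Sox2 were not called. Among the neuronal markers 3 were gained (Tubb3, Nhlh1, Neurod4) and 0 lost, while Stmn2, Elavl4 and Map2 were not called. Over promoter peaks with a mean count of at least 20, 3.33% were lost and 4.87% gained in this contrast. In bulk chromatin, fewer cells with the mark and less of the mark per cell cannot be told apart.

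Levels of the 285 members were even over the first 4 libraries and low in the last 2. The median scaled count at 0 h was 131 in R1 and 138 in R2, it was 128 and 124 at 12 h, then 66.6 and 75.7 at 48 h. The 13362 promoter peaks took another course, with medians of 165 and 166 at 0 h, 124 and 121 at 12 h, then 192 and 156 at 48 h. The members thus lacked both the dip at 12 h and the return at 48 h of the usual promoter peak, which is in part what the rule asks for, as set out with the 12 h test below. The 48 h replicates differed, since R2 was above R1 in 189 of the 285 members (median ratio 1.095), whereas over all promoter peaks the median ratio of R2 to R1 was 0.838.

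**Figure D1:**
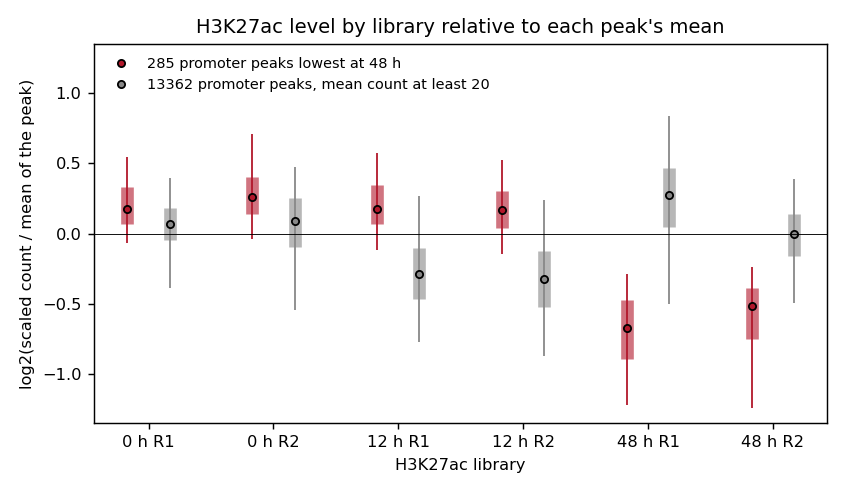
H3K27ac in each of the 6 libraries (x axis) as log2 of the scaled count over the peak's own mean (y axis), for the 285 members and the 13362 promoter peaks. Points are medians, thick bars the quartiles and thin lines the 5th to 95th percentiles. The members' medians lay at 0.17 to 0.26 at 0 h and 12 h and at -0.67 and -0.52 at 48 h, while those of promoter peaks dropped to -0.29 and -0.32 at 12 h.

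Over the members, H3K27ac at 48 h vs 0 h had a median log2 fold change of -0.82 (quartiles -1.04 and -0.64, range -2.27 to -0.32), and at 48 h vs 12 h a median of -0.77. Both contrasts chose the members and are given as descriptions. In edgeR's quasi-likelihood fit over all peaks, 193 members (67.7%) passed an adjusted p of 0.05 as lost at 48 h vs 0 h, against 5.45% of all merged peaks and 3.33% of promoter peaks. At 48 h vs 12 h 174 members (61.1%) did so, against 8.43% and 2.89%. Nothing is read from these shares, since the rule used the same libraries. The ratio of the lowest earlier value to the higher 48 h value had a median of 1.36, reached 1.5 in 76 members and 2 in 14, and was highest at 3.3. Just inside the limit were peaks at Cfap99/Zfyve28 (1.2014), Mafa (1.2016) and D1Pas1 (1.2016), and just outside were Enpp4 (1.1999), Ruvbl2 (1.1997) and Lekr1 (1.1991).

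The members belonged to 275 genes. A single gene was assigned to 267 of them and several genes to 18. Counts of 3 members were found at Nr5a2 and Folr1 and of 2 members at 24 genes, and neighbouring peaks of a gene are not independent of each other. The mean scaled count over the libraries ran from 20.3 to 3338, was at least 1000 in 22 members and was under 50 in 76, where counting error is wide.

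The members with the lowest mean log2 fold change over 48 h vs 0 h and 48 h vs 12 h were at genes of mixed roles. Cd37, a leukocyte tetraspanin, had 2 members. The wider one (chr7:45237647-45243489), shared with Slc6a16, a member of the amino acid and neurotransmitter transporter family, had 381 and 456 at 0 h, 548 and 611 at 12 h, then 144 and 174 at 48 h. The smaller one had the highest ratio of all, with 25.7 and 39.3, then 40.7 and 34.0, and then 7.77 and 6.02, so that it rests on few reads at 48 h.

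Others among the 10 lowest included peaks near Cltb (a clathrin light chain), at Fastkd5/Ubox5 (a mitochondrial RNA-processing protein and a ubiquitin ligase), at A630095N17Rik, and near Pdgfc (a growth factor ligand), together with the pair at Inhbb and 1 of the pair at Aurkc. The Fastkd5/Ubox5 peak had 152 and 126 at 0 h, 181 and 165 at 12 h, then 52.2 and 44.7 at 48 h. The peak near Cltb stood at 47.2 and 28.7, 56.8 and 54.3, and 12.2 and 10.3. At A630095N17Rik the values were 27.7 and 26.5, 26.8 and 31.3, and 5.55 and 12.0. Both 12 h libraries were above both 0 h libraries near Cltb and at Fastkd5/Ubox5, and they overlapped at A630095N17Rik. Members at kinases of blood cells, chosen after their values were seen, were Fgr (192 and 167, 205 and 213, 82.2 and 87.7, with a second and weaker member beside it) and Lck (24.6 and 35.0, 26.8 and 33.1, 11.1 and 18.1).

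**Figure D2:**
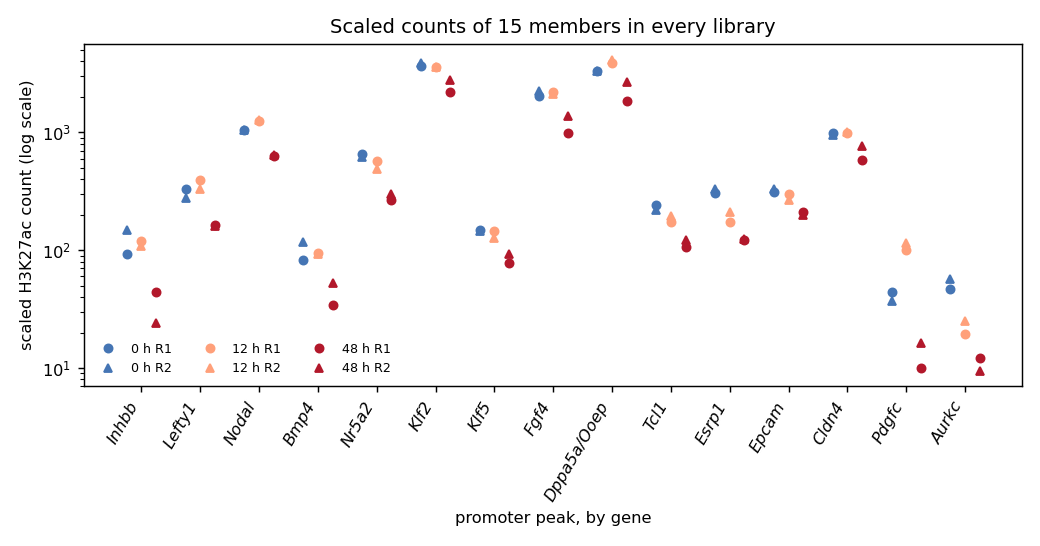
Scaled H3K27ac counts (y axis, log scale) in each of the 6 libraries for the promoter peaks of 15 members (x axis, by gene). For genes with several members the one of highest mean is drawn, except at Pdgfc and Aurkc, where it is the one called at 12 h. Circles are R1 and triangles R2. In every one of them both 48 h libraries lay under all 4 earlier libraries, as the rule requires, and in Pdgfc the 12 h libraries lay above 0 h before the fall.

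Pluripotency transcription factors had 7 members at 5 of the 27 genes of a textbook list that had a promoter peak, among them Nr5a2, Klf2, Klf5 and Zfp296. The lists used here were written from textbook knowledge with earlier results of these data known, so shares of members in them are descriptions. Nr5a2, a nuclear receptor of the ES cell circuit, had 3 members in a row on chromosome 1. The main one (chr1:136950979-136955803) had 660 and 624 at 0 h, 575 and 489 at 12 h, then 268 and 298 at 48 h. A second (chr1:136956823-136959247) had 331 and 249, then 187 and 147, and then 85.5 and 101, so that both 12 h libraries were already below both 0 h libraries. The third had 114 and 118, 79.3 and 66.2, and 40.0 and 53.3.

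Klf2, a zinc finger factor of naive pluripotency, lay in a wide peak of 3698 and 3895 at 0 h, 3624 and 3569 at 12 h, then 2207 and 2763 at 48 h. The member at Klf5, a relative of Klf2, sat downstream of the TSS with 149 and 145, 146 and 127, and 77.7 and 92.0. The peak that covers the Klf5 TSS was no member, as it had already lost H3K27ac at 12 h (edgeR, log2 fold change -0.74, adjusted p = 0.0079). The member at Gemin7/Zfp296, chosen after its values were seen, had a log2 fold change of -0.46 at 48 h vs 0 h. Over the strongest promoter peaks of the 27 genes, 10 were lost and 1 was gained at 48 h vs 0 h, members included. Over all merged peaks 5.45% were lost and 8.56% gained in this contrast, and over promoter peaks 3.33% and 4.87%. List genes that are not members and are given with values were chosen after their values were seen. Nr0b1 (-1.22, adjusted p = 0.0041) and Tfcp2l1 (-1.03, adjusted p = 0.019) were among the lost ones that are not members. Gbx2 (1.05, adjusted p = 0.00042) was the one gained.

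Stem cell markers other than transcription factors had 10 members, at 10 of 36 genes. Fgf4, the ligand that drives ERK signalling in ES cells, had 2051 and 2237 at 0 h, 2197 and 2139 at 12 h, then 988 and 1385 at 48 h. The peak shared by Dppa5a and Ooep, genes of pluripotent cells and oocytes, had 3335 and 3333, then 3877 and 4155, and then 1832 and 2657, with both 12 h libraries above both 0 h libraries. Tcl1, a coactivator of Akt, had 240 and 218, 175 and 195, and 105 and 123. Cobl, an actin nucleator, had 322 and 402, 442 and 353, and 153 and 210. In this list 9 of the 35 strongest peaks were lost and 3 gained at 48 h vs 0 h. Over promoter peaks the shares were 3.33% and 4.87%. The lost ones include members, which this contrast chose, and only Trim71 and Slc2a3 among them are not members. The counts at 12 h vs 0 h were 4 lost and 3 gained, against 20.6% and 2.47% of promoter peaks. The 19 genes of formative and primed pluripotency, the state that follows, held no member. Over all genes with a promoter peak 2.25% had one, so that 0 in a list of this size is no result about it. Of the strongest peaks of these 19 genes 11 were gained and 0 were lost at 48 h vs 0 h (edgeR; 13 gained and 1 lost at an unadjusted p of 0.05).

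Nodal, Lefty1 and Inhbb were the 3 genes with a member among the 30 of the Nodal, activin and TGF-beta list. The peaks of the antagonist Lefty2 (log2 fold change -0.04, adjusted p = 0.88) and of the ligand Gdf3 (-0.07, adjusted p = 0.78) were not called at 48 h vs 0 h. Nodal itself, the ligand, had 1051 and 1056 at 0 h, 1260 and 1268 at 12 h, then 634 and 645 at 48 h. Lefty1, a secreted antagonist of Nodal, had 328 and 278, 395 and 334, and 163 and 160. In both genes the 12 h libraries lay above the 0 h libraries, by a log2 fold change of 0.26 ± 0.14 (SE, adjusted p = 0.21) in Nodal and 0.26 ± 0.18 (adjusted p = 0.33) in Lefty1. With only the 4 libraries of 0 h and 12 h in the edgeR fit, the adjusted p for Nodal was 0.013. That fit called more peaks in general, with 8.42% of members and 4.80% of promoter peaks gained. In the main fit these shares were 1.75% and 2.47%, and Nodal was not called. Inhbb, which encodes the subunit of activin B, had 2 members. The one covering its TSS had 92.4 and 150 at 0 h, 119 and 109 at 12 h, then 44.4 and 24.1 at 48 h, and the one beside it 32.8 and 70.1, 64.3 and 48.8, and 11.1 and 10.3. Their 0 h replicates were far apart and spanned the 12 h values. Of the pathway's 30 strongest peaks 3 were lost at 48 h vs 0 h, which are these 3 genes, against 3.33% of promoter peaks. Another 3 were gained, against 4.87%, among them Inha (0.56, adjusted p = 0.025) and Skil (0.45, adjusted p = 0.021).

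Other signalling ligands and receptors among the members were few. Bmp4, a ligand that supports self-renewal together with LIF, had 83.1 and 117 at 0 h, 94.4 and 92.9 at 12 h, then 34.4 and 52.5 at 48 h, while the peaks of its known targets Id1 (log2 fold change 1.22, adjusted p = 0.00059) and Id2 (0.94, adjusted p = 0.00037) gained at 48 h vs 0 h. The peaks of Id3 (0.07, adjusted p = 0.91) and Smad6 (-0.21, adjusted p = 0.51), further targets, were not called. Lif, the cytokine itself, had 225 and 256, 240 and 224, and 151 and 175. Porcn, the acyltransferase needed for Wnt secretion, had 135 and 178, 112 and 152, and 71.1 and 86.9. Both of these showed an overlap of their 0 h and 12 h libraries.

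Notch4, a Notch receptor, had 88.3 and 106 at 0 h, 64.3 and 61.6 at 12 h, then 43.3 and 44.7 at 48 h. In its list 6 of 20 strongest peaks were gained and 1, its own, was lost at 48 h vs 0 h, and 13 were not called. The counts lost and gained at 48 h were 1 and 2 of 12 in the BMP list, 3 and 3 of 29 in the FGF and ERK list and 2 and 3 of 21 in the Wnt list. Over promoter peaks 3.33% were lost and 4.87% gained in this contrast, and the losses in the lists take in any members. At 12 h vs 0 h the FGF and ERK list had 10 lost and 1 gained of 29, in a contrast where 20.6% of promoter peaks were lost and 2.47% gained.

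Epithelial genes had 3 members at 33 genes with a promoter peak. Esrp1, the splicing regulator of epithelial cells, had 309 and 330 at 0 h, 175 and 210 at 12 h, then 121 and 125 at 48 h. Epcam, the epithelial adhesion molecule also found on ES cells, had 314 and 331, 301 and 269, and 211 and 199. Cldn4, a claudin of tight junctions, had 983 and 957, 983 and 1005, and 582 and 773. Over the list 12 strongest peaks were lost and 1 was gained at 12 h vs 0 h, where the same background of 20.6% and 2.47% holds. At 48 h vs 0 h, 11 were lost, any members included, and 1 was gained, against 3.33% and 4.87% of promoter peaks. The lost peaks that are not members include St14 (-1.88, adjusted p = 0.00014), a membrane protease, and Cldn3 (-1.65, adjusted p = 0.0021), which by then had fallen at 12 h (adjusted p of 0.017 and 0.0081).

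Germline genes had 5 members at 4 of 15 genes. Aurkc, the Aurora kinase of meiosis, had 2. The one over its TSS (chr7:6995434-6996132) had 47.2 and 57.3 at 0 h, 19.3 and 24.8 at 12 h, then 12.2 and 9.46 at 48 h, whereas the one upstream (chr7:6993343-6994496) had 68.8 and 70.1, 76.1 and 75.4, and 21.1 and 29.2. The neighbouring peaks thus took different courses by 12 h, a difference that was not tested. Dmrt1, a transcription factor of germ cells, had 41.1 and 59.4, 37.5 and 44.2, and 21.1 and 13.8. Tdrd12, a Tudor protein of the piRNA pathway, had 60.6 and 58.4, 59.0 and 69.9, and 41.1 and 37.0, and Tfap2c, a factor of germ cells and trophoblast, 71.8 and 94.5, 79.3 and 72.7, and 53.3 and 47.3.

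Of the remaining lists, members were found at Gadd45a (a growth arrest and DNA damage gene), Trib3 (a stress-induced pseudokinase), Elf3 (an epithelial ETS factor), Col18a1 (a basement membrane collagen) and Itga3 (a laminin receptor subunit). Gadd45a had 1388 and 1400 at 0 h, 1290 and 1384 at 12 h, then 794 and 877 at 48 h. Trib3 had 556 and 625, 581 and 565, and 285 and 400. The other 3 had means of 24.8 to 63.9 at 48 h and 41.2 to 134 at 0 h.

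No member was found at the 35 chromatin regulators, the 34 genes of glycolysis and one-carbon metabolism, the 23 cholesterol and lipid genes or the 22 neuronal transcription factors with a promoter peak. Over all 12236 genes with a promoter peak 275 (2.25%) had a member, so that 0 in a list of this size is no result about it. The neuronal factors instead had 13 strongest peaks gained and 0 lost at 48 h vs 0 h (edgeR; 19 gained and 0 lost at an unadjusted p of 0.05). The cell cycle, immediate early and extracellular matrix lists had 2 gained and 3 lost, 2 gained and 5 lost, and 2 gained and 3 lost. These were out of 32, 32 and 29 strongest peaks, any members included. Over promoter peaks 4.87% were gained and 3.33% lost in this contrast. In all, 34 of the 275 genes were in one of the 19 lists, so that most members belonged to none of them.

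**Figure D3:**
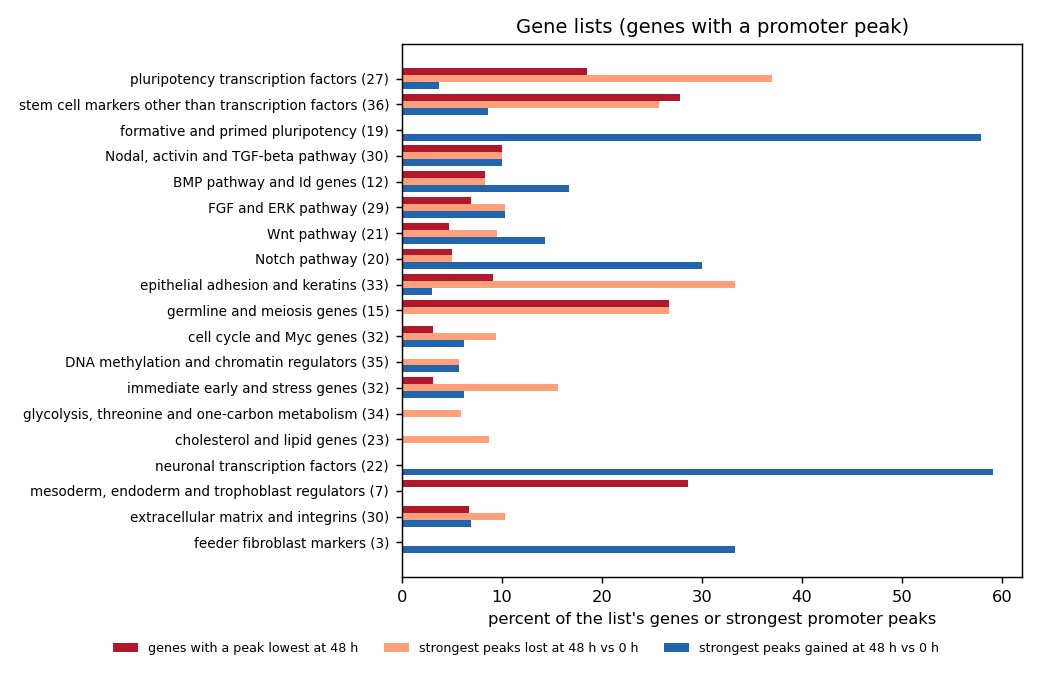
For each of 19 gene lists (y axis, with the number of genes that had a promoter peak), the percent of genes with a member (dark red) and the percent of their strongest promoter peaks lost (light orange) or gained (blue) at 48 h vs 0 h. Members were at 10 of 36 stem cell markers and 4 of 15 germline genes, against 275 (2.25%) of the 12236 genes with a promoter peak. The lists were written with earlier results of these data known, so these shares are descriptions. Lost peaks take in members, which were chosen by the 48 h values. Over promoter peaks 3.33% were lost and 4.87% gained at 48 h vs 0 h. None were at the formative pluripotency and neuronal factor genes, which in lists of this size is no result about them. Gains outnumbered losses among the strongest peaks of these lists.

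The 5 members of highest mean were also the 5 widest, those of Itgb7/Rarg (an integrin subunit and a retinoic acid receptor, with 3623 and 3931 at 0 h and 2580 and 2643 at 48 h), Klf2, Mllt6 (a partner of chromatin-modifying complexes, 3494 and 3885 at 0 h and 2193 and 2401 at 48 h), Dppa5a/Ooep and Gpx4 (an enzyme that removes lipid peroxides, 2924 and 3039 at 0 h and 2007 and 2395 at 48 h). At 12 h these 3 newly named peaks had 3651 and 3599, 3736 and 3759, and 2939 and 2899, in or near the range of 0 h. Members chosen after their values were seen include Rest, the repressor of neuronal genes, with 1839 and 1871 at 0 h, 1808 and 1800 at 12 h, then 811 and 1092 at 48 h. Its peak (chr5:77253305-77265347) has its centre at -6165 bp from the TSS, and its edge reaches into the promoter window. The neighbouring peak over the Rest TSS, which is no member, had a log2 fold change of -0.68 at 48 h vs 0 h. Gli1, a transcription factor of the hedgehog pathway, had 1339 and 1439, 1115 and 1165, and 673 and 604. Tert, the telomerase subunit, had 132 and 171, 127 and 113, and 78.8 and 74.0.

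Whether the members had begun to change by 12 h was tested with edgeR's quasi-likelihood test, adjusted by the Benjamini-Hochberg method over all 66841 peaks. Of the 285 members 5 (1.75%) were gained and 6 (2.11%) were lost at 12 h vs 0 h. The background was 9.93% gained and 6.03% lost over all merged peaks, and 2.47% gained and 20.6% lost over promoter peaks with a mean count of at least 20. The median log2 fold change was -0.05 (quartiles -0.26 and 0.14), against -0.39 (quartiles -0.62 and -0.14) over promoter peaks. The 12 h libraries were both lower than either 0 h library in 94 members (33.0%, against 70.1% of promoter peaks and 35.1% of all peaks) and both higher in 62 (21.8%, against 9.21% and 30.7%), and the groups overlapped in 129.

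The rule itself sets part of this, as it keeps only peaks whose 12 h values are well above those at 48 h. Dropping the 12 h libraries from the rule, an alternative added after seeing the data, gave 924 promoter peaks, of which 219 (23.7%) were lost at 12 h vs 0 h, with a median log2 fold change of -0.44. That share is close to the 20.6% of promoter peaks in general. Dropping the 0 h libraries instead gave 578 peaks, of which 135 (23.4%) were gained. The low share of members lost at 12 h is therefore not a result about them.

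The 6 members lost at 12 h were at Aurkc, Dusp1, Ankrd45, Ntn1, Nr5a2 and Esrp1. The Aurkc peak over the TSS had the largest log2 fold change (-1.23 ± 0.32 SE, adjusted p = 0.012). The peak near Dusp1, a phosphatase that switches off MAP kinases, had 43.1 and 32.9 at 0 h, 18.2 and 15.6 at 12 h, then 8.88 and 10.3 at 48 h (-1.17 ± 0.36, adjusted p = 0.028). At Ankrd45, an ankyrin repeat gene, the values were 75.9 and 91.3, 35.4 and 45.1, and 28.9 and 25.8 (-1.05 ± 0.28, adjusted p = 0.012). The member in Ntn1, the axon guidance cue netrin-1, had 164 and 205, 103 and 87.4, and 68.8 and 45.6 (-0.96 ± 0.24, adjusted p = 0.0086). The rule places the 12 h libraries of every member above those of 48 h. In each of these they also lay below both 0 h libraries, as goes with a called loss. The outer Nr5a2 peak (-0.80 ± 0.21, adjusted p = 0.012) and Esrp1 (-0.73 ± 0.19, adjusted p = 0.012) did the same.

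The 5 members gained at 12 h went up before the fall that the rule requires. The peak upstream of Pdgfc (chr3:81033417-81034854) had 44.1 and 37.2 at 0 h, 99.7 and 114 at 12 h, then 9.99 and 16.3 at 48 h, a log2 fold change of 1.39 ± 0.27 (SE) at 12 h vs 0 h (adjusted p = 0.0012). Its second member, over the TSS, had 163 and 210, 207 and 243, and 120 and 82.6 and was not called. Map7, a microtubule-binding protein of epithelial cells, had 803 and 998, 1463 and 1391, and 430 and 626 (0.66 ± 0.17, adjusted p = 0.0096). Cbr3, a carbonyl reductase, had 162 and 214, 286 and 312, and 109 and 127 (0.67 ± 0.20, adjusted p = 0.026). In all 5 both 12 h libraries were above both 0 h libraries, and above those of 48 h as the rule requires. Gjb1, the gap junction protein connexin 32, had 167 and 153, 238 and 255, and 72.2 and 104 (0.62 ± 0.21, adjusted p = 0.047). Synj2, an inositol phosphatase, had 353 and 360, 538 and 513, and 189 and 200 (0.56 ± 0.17, adjusted p = 0.026).

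Most calls were lost when a single 0 h or 12 h library was left out, while leaving out a 48 h library raised their number. Without 0 h R1 there was 1 gained and 1 lost member, without 0 h R2 there were none of either, and without 12 h R1 or without 12 h R2 there was 1 gained and none lost. Calls over all promoter peaks dropped as well, the share lost from 20.6% to 4.36%, 0.374%, 1.81% and 0.674% in the same order, so that the loss of calls is not particular to members. A fit of only the 4 libraries of 0 h and 12 h called 24 gained (8.42%) and 36 lost (12.6%), against 4.80% and 47.8% of promoter peaks. Members were lower in GC content than promoter peaks, and a correction for GC content within libraries moved the medians to 0.02 for members and -0.14 for promoter peaks, so that their difference shrank from 0.34 to 0.16.

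**Figure D4:**
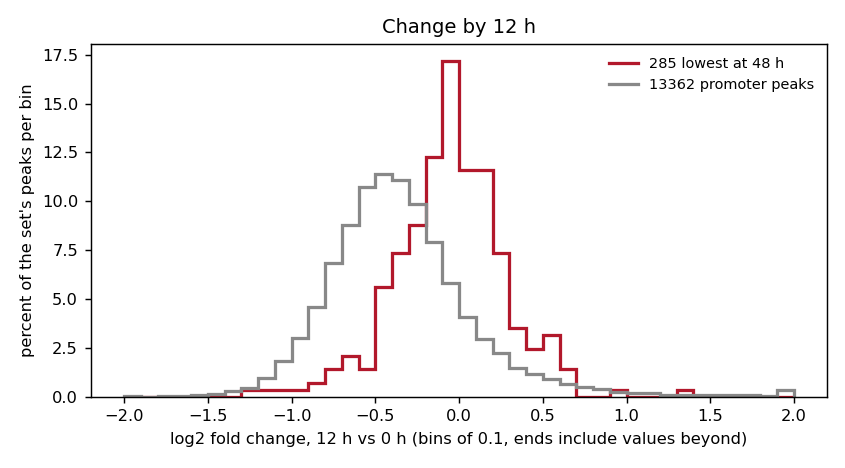
Distribution of the log2 fold change at 12 h vs 0 h (x axis, bins of 0.1) as the percent of peaks in each set (y axis), for the 285 members and the 13362 promoter peaks. The members centre near 0 (median -0.05) and the promoter peaks at -0.39.

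By position, 151 members (53.0%) covered a TSS, against 79.4% of promoter peaks. The other 134 lay beside one, 76 of them upstream and 58 downstream. Members were somewhat wider than promoter peaks, with a median of 1910 bp against 1600 bp. On chromosome 4 lay 10.2% of members and 7.08% of promoter peaks, on chromosome 7 10.9% and 8.16%, and on the X chromosome 2.11% and 2.86%.

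Of the 134 members beside a TSS, 89 had a peak of the same gene that covered a TSS, and 16 of these covering peaks were members as well. For each gene the covering peak of highest count was taken, wherever its TSS lay. Some pairs are thus far apart, as at Stox2, with starts at chr8:47412563 (member) and chr8:47287740. The 71 distinct covering peaks that were not members had a median log2 fold change at 48 h vs 0 h of -0.27 (quartiles -0.55 and -0.04). Of these 55 were below 0, whereas the members paired with them had a median of -0.82. At Cltb the member had -1.76 and the covering peak -0.36, and at Dusp1 -1.96 and -0.25. At Ntn1, where the covering peak lies at another TSS than the one nearest the member, they had -1.70 and -0.74. The median ratio of observed to expected CpG, in the 500 bp at the centre, was 0.665 in these covering peaks and 0.225 in the members paired with them. In 7 of the 73 pairs of such a member and covering peak, Klf5 among them, the covering peak had the lower fold change. The members were chosen by this contrast, so the difference in fold change is a description.

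CpG content differed between the members and other promoter peaks. The rule did not use it directly but may select on it in part, which was not tested. At 48 h vs 12 h the median log2 fold change was 0.49 in promoter peaks covering a TSS, the class richer in CpG. In those that did not cover one it was 0.22. The ratios below were not computed for the 382 peaks that met the rule with the GC offset, of which 241 were members. The observed to expected ratio had a median of 0.296 in members (quartiles 0.172 and 0.507), 0.696 in promoter peaks (0.428 and 0.863) and 0.566 in promoter peaks highest at 48 h. It was at least 0.6 in 58 members (20.4%), against 61.2% and 45.7%. The difference was not only one of position, as the medians were 0.383 and 0.746 in members and promoter peaks that covered a TSS and 0.226 and 0.365 in those that did not. In the 300 bp around the nearest TSS the medians were 0.542 in members, 0.822 in promoter peaks and 0.724 in those highest at 48 h. GC content at the centre was 53.4% against 60.6%, and over whole peaks 52.4% against 54.6%. Peaks outside promoters had a median CpG ratio of 0.259 and a GC content of 49.6%, closer to the members' values than those of promoter peaks.

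**Figure D5:**
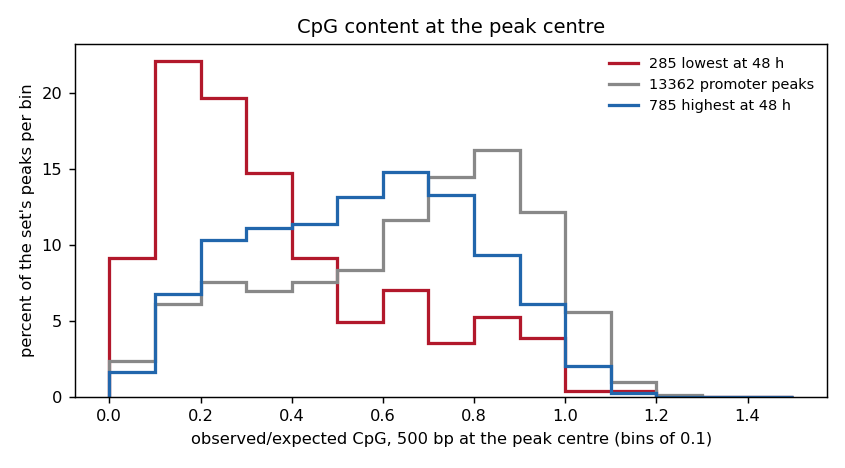
Distribution of the ratio of observed to expected CpG in the 500 bp at the peak centre (x axis, bins of 0.1) as the percent of peaks in each set (y axis), for the 285 members, the 13362 promoter peaks and the 785 promoter peaks highest at 48 h. The members' median is 0.296, against 0.696 and 0.566.

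A search of the 500 bp at the peak centre for 18 short motifs, on both strands, gave shares that differed from those of all promoter peaks for some motifs and not for others. The 95% Wilson interval of the members, which covers counting error only, held the promoter share for the E-boxes CACGTG and CAGCTG, the KLF form and the octamer, among others. The E-box CACCTG, the form bound by ZEB and SNAI repressors and by E proteins, was in 138 members (48.4%, 95% Wilson interval 42.7 to 54.2), against 34.0% of promoter peaks and 26.8% of those highest at 48 h. The share was 48.9% in members with a CpG ratio under 0.6 and 46.6% in the others, against 37.3% and 31.9% of promoter peaks. CAGATG, the E-box form preferred by NeuroD1, was in 26.7%, 20.6% and 29.0%. Within the class of low CpG it was in 30.0% of members, 29.0% of promoter peaks and 38.3% of those highest at 48 h. CAGCTG was in 28.4%, 24.2% and 28.9%, and CACGTG in 11.9%, 10.9% and 6.24%. Of these 4 forms CAGCTG and CACGTG read alike on both strands, and no stretch of letters counts under more than 1 form.

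TCAAGGTCA was in 13 members (4.56%, interval 2.68 to 7.65), against 1.02% of promoter peaks and 0.255% of those highest at 48 h. In peaks with a CpG ratio under 0.6 the shares were 5.29%, 1.70% and 0.235%, and over whole peaks 15.4%, 5.04% and 2.55%. Of its 14 sites in members 10 (71.4%) lay in sequence soft-masked as repeats, against 38.3% of the sites in promoter peaks. Sites outside such sequence were in 4 members (1.40%) and in 0.629% of promoter peaks, and sites inside it in 9 members (3.16%) and 0.389%. Repeats covered a mean of 20.2% of the central 500 bp of members and 10.7% of those of promoter peaks. The part of repeats in the share of TCAAGGTCA was not tested beyond these counts, which were added after seeing the data.

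The GC box and the ETS motif were less frequent in members. The GC box GGGCGG was in 35.1% of members and 60.6% of promoter peaks, and the ETS motif CCGGAAG in 7.72% and 15.3%. The SOX motif CATTGT was in 17.9% and 11.9%, the TCF/LEF motif CTTTGAT in 6.67% and 3.63%, the TATA motif TATAAA in 14.0% and 9.44%, the NF-Y motif CCAAT in 45.3% and 38.4%, and the KLF form GGGTGTGG in 7.02% and 5.49%. Within peaks of a CpG ratio under 0.6 the shares of members and promoter peaks were 25.6% and 30.6% for GGGCGG, 5.73% and 7.96% for CCGGAAG, 15.9% and 16.2% for TATAAA, 20.7% and 17.4% for CATTGT and 7.05% and 5.53% for CTTTGAT, closer together than over all peaks. CACGTG, which also holds a CpG, was in 9.69% and 9.13% there and in 20.7% and 12.0% of peaks with a higher ratio. The octamer ATGCAAAT, TGACGTCA (CRE), AACCGGTT (GRHL), TTCCNGGAA (STAT) and the motifs of NRF1 and YY1 were each in 3 members or fewer. A match of letters says nothing of whether a factor was bound.

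Peaks outside promoters near the member genes leaned the same way. Within 50 kb of the TSSs of member genes lay 1002 peaks outside promoters with a mean count of at least 20, and their median log2 fold change at 48 h vs 0 h was -0.43, against -0.14 for all 28395 such peaks. Of the near peaks 203 (20.3%) were lost and 2.10% gained, against a background of 10.3% lost and 11.6% gained. This background holds peaks at any distance from a promoter peak. Peaks near other genes with a promoter peak were not compared, so closeness to a member and to any such gene cannot be told apart. At 20 kb the median was -0.50 (481 peaks) and at 100 kb -0.37 (1695 peaks). At 12 h vs 0 h it was -0.07 near member genes and 0.06 over all. The 48 h contrast is that of the rule, in the same libraries, so these values are given without a test.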

How the data were processed

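H3K27ac ChIP-seq of A2Lox ES cells was analysed in 6 libraries, with 2 replicates each at 0 h, 12 h and 48 h. Input was not used here. The authors aligned reads to mm10 with Bowtie2, used SAMtools 0.1.19, called peaks with MACS2, merged them, and deposited raw counts per merged peak. The members and the gene lists were chosen with earlier results of these data known. Counts were fitted with edgeR 4.0.16 in R 4.3.3 (glmQLFit, glmQLFTest) over all 66841 peaks, with time point as the factor, library totals as the offset, 3 residual degrees of freedom and an adjusted p of 0.05. The test was tried on simulated counts. TSSs came from the GENCODE M21 basic set, and sequence from the RefSeq copy of GRCm38 with pysam 0.24.0. A list's strongest peak is the promoter peak of highest mean count of a gene. Alternatives were DESeq2 1.42.0, TMM factors, a count filter, a GC offset (lowess span 0.3), a replicate block, the 4 compared libraries alone, and leaving out each library. Shared numbers did not pair the libraries: correlations of the R1 minus R2 differences between time points were -0.036, -0.05 and 0.078.

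Named were up to 4 members per list, and the 10 of all members, with the lowest mean of both 48 h contrasts, the 5 lowest and 5 highest at 12 h among called members, 3 on either side of the limit, and the 5 of highest mean. Some members that this rule names are not reported here.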

Additional observations from a re-analysis of the deposited data

How the results depend on the processing

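The number of promoter peaks that met the rule was 285 and became 777 with any fold above 1, 76 with a fold of 1.5 and 180 with a window of 500 bp. It ranged from 312 to 753 when 1 library was left out, with 548 without 48 h R1 and 753 without 48 h R2, since the rule then rests on fewer values. Without the 12 h libraries the rule gave 924 peaks and without the 0 h libraries 578. TMM factors gave 258 peaks and the GC offset 382, each sharing 241 with the 285.

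Members gained at 12 h vs 0 h numbered 5, and 9 with TMM factors, 23 with the GC offset and 24 with only the libraries compared. Members lost numbered 6, and 3 with DESeq2, 13 with the GC offset and 36 with only the libraries compared. Under the same settings the shares of promoter peaks gained and lost were 2.99% and 13.0% with TMM factors, 1.90% and 6.56% with DESeq2, 3.83% and 9.65% with the GC offset and 4.80% and 47.8% with only the libraries compared. Leaving out 1 library gave 0 to 24 gained and 0 to 36 lost. The lowest counts came without a 0 h or 12 h library and the highest without a 48 h library. The median log2 fold change of members, -0.052, was 0.013 with TMM factors and 0.019 with the GC offset. Why these settings moved the counts was not tested.

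With the replicate number as a block, 4 members were gained and 6 lost. The block together with the GC offset gave 25 gained, 19 lost and a median of 0.02. The numbers do not pair the libraries, so the block is given as an alternative only. Peaks with mean scaled counts under 50, 76 of the members, are those where depth limits the values most.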
